A study of Danio rerio with 6 samples.

Results

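The genes described here are nsdhl and 6 genes grouped under the mevalonate pathway, hmgcs1, hmgcrb, mvk, acat1, acat2 and fntb. These 6 are called mevalonate genes for short, although fntb acts past the mevalonate steps and acat1 encodes a mitochondrial enzyme. Together with nsdhl they make 7 of the 32054 genes in the count table. They were chosen by name, with earlier results of these data known. The size of the change, the level in each library and the abundance of the pathway's steps were set against the change of nsdhl. All 7 passed edgeR's filter on low counts, as did 15511 genes in all.

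The mevalonate pathway joins acetyl-CoA units to HMG-CoA, reduces HMG-CoA to mevalonate and turns mevalonate into isoprenoid diphosphates. Farnesyl diphosphate, one of these, is a branch point: it is joined to squalene for sterols, attached to proteins by prenyltransferases, and extended to dolichol and to the tail of ubiquinone. In mammals, cells short of sterol release the transcription factor SREBP2, which raises the genes of this pathway and the LDL receptor together. Sterols made at the end of the sterol branch serve the membranes of the early embryo and are the substrate for steroids such as pregnenolone.

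The RNA-seq compared 3 samples of zebrafish embryos injected with mondoa-mo, a morpholino that blocks translation of mondoa at its start site, with 3 samples injected with mondoa-mis, a control morpholino with mismatches to the same site. MondoA is a transcription factor that responds to glucose together with its partner Mlx. Both groups were whole wild-type embryos collected as pools at 4 hpf, when the control embryos were at sphere stage, and both carried an injected morpholino. The study's fish were descendants of the AB or the golden strain, and the strain behind each pool is not stated. Nothing in the labels says whether the pools came from separate clutches, so the p-values measure the spread between these samples, which may be in part technical. A morpholino lowers translation for a time and removes no gene. The mRNA of mondoa, listed as mlxip, was at 298, 327 and 349 CPM in mondoa-mo libraries 1, 2 and 3, against 278, 273 and 267 CPM in mondoa-mis libraries 1, 2 and 3 (log2 fold change 0.25, adjusted p = 0.0074 by the edgeR quasi-likelihood test after Benjamini-Hochberg adjustment). Since translation was the target, this mRNA level is no check of the labels.

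Total counts lay between 21839631 and 32100726 in mondoa-mo and between 20685326 and 24254373 in mondoa-mis. The mondoa-mo libraries were spread more widely, their biological coefficient of variation being 0.111, against 0.0189 in mondoa-mis. Markers of the deep cells summed to 2698 to 2920 CPM in mondoa-mo against 2559 to 2577 CPM in mondoa-mis, with 2 of 4 tested called higher and 0 lower. Those of germ plasm summed to 859 to 973 against 1089 to 1096 CPM. Although this sum was lower, 3 of 5 tested germ plasm markers were called higher and 1 lower (median log2 fold change 0.28). Those of the enveloping layer summed to 100.1 to 159 against 188 to 197 CPM. Of 6 tested enveloping layer markers, 1 was called lower, 1 higher and 4 neither (median log2 fold change -0.10). Few yolk syncytial layer transcripts were seen, with sums of 6.72 to 12.7 CPM in mondoa-mo and 8.89 to 9.49 CPM in mondoa-mis, and 2 of the 3 tested markers of that layer were called lower. Maternal mRNAs summed to 4059 to 4747 CPM in mondoa-mo against 4963 to 5052 CPM in mondoa-mis. Of 7 tested maternal genes, 2 were called lower, 1 higher and 4 neither, with a median log2 fold change of -0.13. The gene buc belongs to both the germ plasm and the maternal list. Early zygotic genes summed to 468 to 582 against 411 to 421 CPM, with 6 of 10 tested zygotic genes called higher and 3 lower. Over all genes tested, 16.9% were called higher and 15.4% lower. None of the markers of these 6 lists was at 0 in every library. Blood and liver markers, which should be absent at this stage, summed to at most 0.238 CPM in any library. The part of cell composition, developmental stage and library spread in the results given here was not tested. In whole embryos, fewer cells of a type and less RNA per cell cannot be told apart.

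Every member was lower in mondoa-mo, nsdhl 13.3-fold and the mevalonate genes by less than 2-fold. A call means an adjusted p under 0.05, where the adjustment ran over all genes tested. By this rule 7 of 7 members were called lower, beside 15.4% of all genes tested, while 16.9% of all genes were called higher and 32.3% in either direction. The groups did not overlap for 7 of 7 members, the mondoa-mo libraries being the lower ones each time; 23.5% of all genes had this order of the groups and 47.8% did not overlap in one direction or the other. Only nsdhl was called and at least 2-fold lower, as were 2.35% of all genes. The 6 mevalonate genes had a median log2 fold change of -0.43, where the median over all genes tested was 0.0027. As the members were chosen with earlier results of these data known, these counts describe them and are no test.

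Levels are given as CPM, counts per 1000000 counts after TMM normalisation, in mondoa-mo libraries 1, 2 and 3 and then in mondoa-mis libraries 1, 2 and 3. Each fold change is log2 of mondoa-mo over mondoa-mis with its standard error (SE), and each adjusted p in the paragraphs on single genes comes from the edgeR quasi-likelihood test after Benjamini-Hochberg adjustment.

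**Figure D1:**
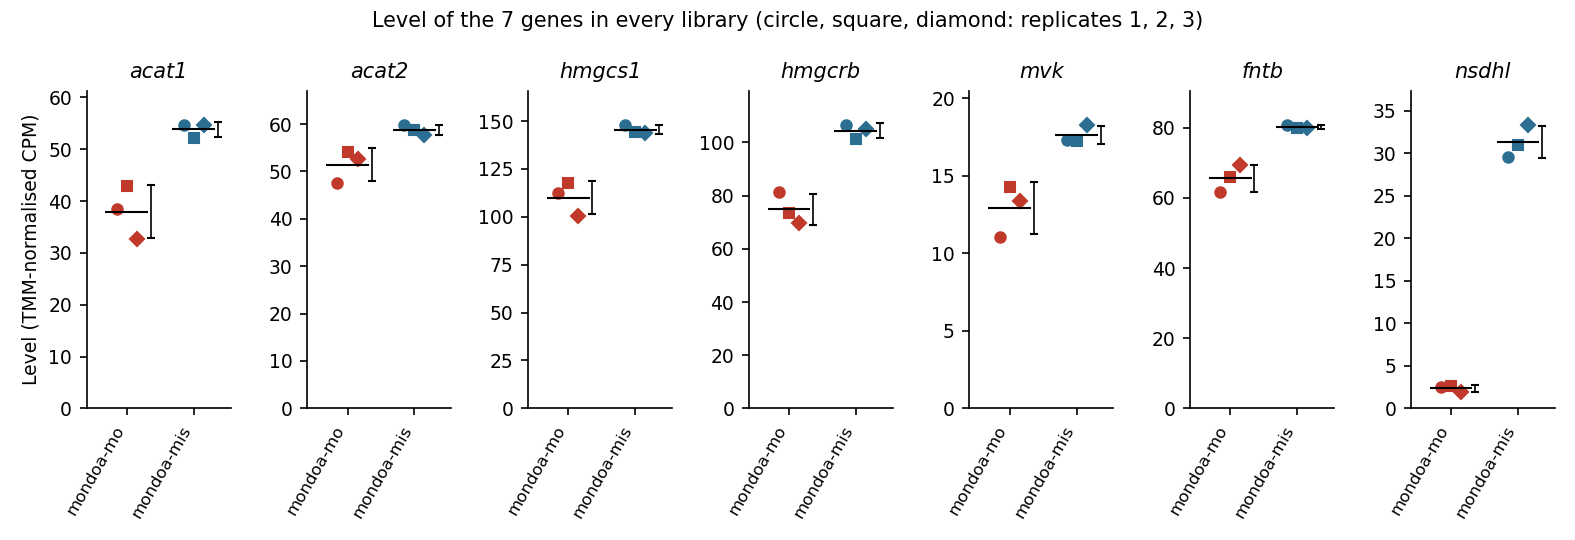
Level of each of the 7 genes in CPM after TMM normalisation, with mondoa-mo on the left and mondoa-mis on the right of each panel; points are single libraries and bars are the mean and SD of 3 libraries. In every panel the mondoa-mo points lie below the mondoa-mis points, and nsdhl lies at 2.36 CPM on average in mondoa-mo against 31.3 CPM in mondoa-mis.

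The first condensation of the pathway joins acetyl-CoA units to acetoacetyl-CoA. In the cytosol this is done by acat2, an acetyl-CoA acetyltransferase. The gene acat2 (ENSDARG00000007127) had 47.6, 54.2 and 52.6 CPM in mondoa-mo and 59.9, 58.8 and 57.7 CPM in mondoa-mis. Library 2 of mondoa-mo came closest to mondoa-mis, and the groups lay near each other without overlapping. Its mean of 51.4 ± 3.45 CPM in mondoa-mo was 87.5% of the 58.8 ± 1.1 CPM in mondoa-mis (SD, n = 3 each), and its log2 fold change of -0.19 (SE 0.0636, adjusted p = 0.039) was the smallest of the 7. This call was lost without mondoa-mo library 1 (adjusted p = 0.087) and without mondoa-mis library 1, 2 or 3 (adjusted p = 0.14, 0.13 and 0.10).

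The mitochondrial acetyltransferase acat1, which in mammals serves ketone body and isoleucine breakdown as well as acetoacetyl-CoA formation, changed more. Its level (ENSDARG00000045888) was 38.4, 42.8 and 32.6 CPM in mondoa-mo and 54.6, 52.2 and 54.8 CPM in mondoa-mis. Library 3 was the lowest of the mondoa-mo libraries and library 2 the highest, and the whole group lay clear of mondoa-mis. The mean was 37.9 ± 5.12 CPM in mondoa-mo, or 70.5% of the 53.8 ± 1.46 CPM in mondoa-mis (SD, n = 3 each), with a log2 fold change of -0.51 (SE 0.0899, adjusted p = 0.0019). Of the 6 mevalonate genes this was the lowest fitted value, although its 95% interval of -0.71 to -0.31 overlapped those of the other 5.

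HMG-CoA synthase, encoded by hmgcs1, makes HMG-CoA from acetoacetyl-CoA in the cytosol. It was the most abundant member, also per length (ENSDARG00000103025), at 112, 118 and 100.4 CPM in mondoa-mo and 148, 144 and 144 CPM in mondoa-mis. The mondoa-mis libraries were nearly level, while the mondoa-mo libraries differed more among themselves and stayed below. Means of 110 ± 8.75 CPM in mondoa-mo and 146 ± 2.36 CPM in mondoa-mis (SD, n = 3 each) gave a log2 fold change of -0.40 (SE 0.0602, adjusted p = 0.00069).

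The gene hmgcrb belongs to the step that makes mevalonate. In zebrafish it is known for a role in the migration of primordial germ cells, which need protein prenylation. The count of hmgcrb (ENSDARG00000105206) gave 81.2, 73.7 and 69.6 CPM in mondoa-mo and 107, 101 and 105 CPM in mondoa-mis. Library 1 was the highest of mondoa-mo and still lay well under the lowest mondoa-mis library. Its mean fell to 74.8 ± 5.89 CPM in mondoa-mo, against 104 ± 2.78 CPM in mondoa-mis (SD, n = 3 each), a log2 fold change of -0.48 (SE 0.0627, adjusted p = 0.00031).

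Mevalonate kinase, encoded by mvk (ENSDARG00000004130), adds the first phosphate to mevalonate. It was at 11.0, 14.3 and 13.4 CPM in mondoa-mo and 17.3, 17.2 and 18.3 CPM in mondoa-mis. Library 1 was the lowest of mondoa-mo, whereas in acat1 and hmgcrb library 3 was the lowest. The mean was 12.9 ± 1.67 CPM in mondoa-mo, or 73.2% of the 17.6 ± 0.589 CPM in mondoa-mis (SD, n = 3 each), with a log2 fold change of -0.46 (SE 0.106, adjusted p = 0.0083).

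Past the mevalonate steps, fntb (ENSDARG00000027916) encodes the beta subunit of protein farnesyltransferase, the enzyme that attaches farnesyl groups to proteins such as Ras and lamins. Its level was 61.6, 65.9 and 69.3 CPM in mondoa-mo and 80.9, 80.0 and 80.0 CPM in mondoa-mis. The mondoa-mis libraries were nearly equal, and all mondoa-mo libraries lay below them. The mean in mondoa-mo, 65.6 ± 3.86 CPM, was 81.7% of the 80.3 ± 0.529 CPM in mondoa-mis (SD, n = 3 each), for a log2 fold change of -0.29 (SE 0.0571, adjusted p = 0.0033).

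Further along the sterol branch, nsdhl (ENSDARG00000099315) encodes the NAD(P)-dependent steroid dehydrogenase that takes part in removing methyl groups from sterol precursors after lanosterol. Its counts were 79, 57 and 46 in mondoa-mo and 723, 729 and 702 in mondoa-mis. As CPM these were 2.53, 2.63 and 1.92 in mondoa-mo and 29.6, 31.0 and 33.4 in mondoa-mis. No mondoa-mo library came near the lowest mondoa-mis library, and library 3 was the lowest of mondoa-mo. The mean of 2.36 ± 0.383 CPM in mondoa-mo was 7.53% of the 31.3 ± 1.92 CPM in mondoa-mis (SD, n = 3 each), or 13.3-fold lower, and the log2 fold change of -3.72 (SE 0.121, 95% interval -3.99 to -3.46, adjusted p = 1.4e-07) was the lowest of all genes tested.

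Counting error alone set the limits of these low nsdhl values as follows. As CPM before TMM normalisation, exact (Clopper-Pearson) 95% intervals ran from 1.39 at the lowest to 3.38 at the highest over the mondoa-mo libraries, and from 27.7 to 36.5 over the mondoa-mis libraries. These intervals cover counting error only. The transcript remained countable in every mondoa-mo library.

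A direct comparison of nsdhl with each other member was made within each library, as log2 of the ratio of their raw counts, which does not depend on how libraries are scaled. The ratio of nsdhl to hmgcs1 was -5.47, -5.48 and -5.71 in mondoa-mo and -2.33, -2.22 and -2.11 in mondoa-mis, and the groups differed by -3.34. To hmgcrb, nsdhl stood at -5.00 ± 0.186 in mondoa-mo and -1.74 ± 0.101 in mondoa-mis (SD, n = 3 each), a difference of -3.26. The ratio to mvk differed in sign: nsdhl had fewer counts than mvk in every mondoa-mo library, with log2 ratios of -2.13, -2.44 and -2.80, and more in every mondoa-mis library, with 0.77, 0.85 and 0.87, a difference of -3.29.

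For the other 3 genes the ratio of nsdhl also separated the groups. To acat1 it was -4.01 ± 0.0828 in mondoa-mo and -0.78 ± 0.0904 in mondoa-mis, a difference of -3.23, and to acat2 it was -4.46 ± 0.283 and -0.91 ± 0.115, a difference of -3.55 (SD, n = 3 each). To fntb it was -4.81 ± 0.316 in mondoa-mo and -1.36 ± 0.0958 in mondoa-mis (SD, n = 3 each), a difference of -3.45. For all 6 ratios the groups did not overlap, and each gave p = 0.1 in a two-sided exact permutation test over the 6 libraries, and 0.1 after Benjamini-Hochberg adjustment over the 6 ratios. With 3 libraries a group, 0.1 is the smallest p this test can give, so it cannot pass 0.05. In the fit over all genes, the 95% interval of nsdhl ended at -3.46, and the lowest bound of the 6 mevalonate genes was -0.71, that of acat1.

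**Figure D2:**
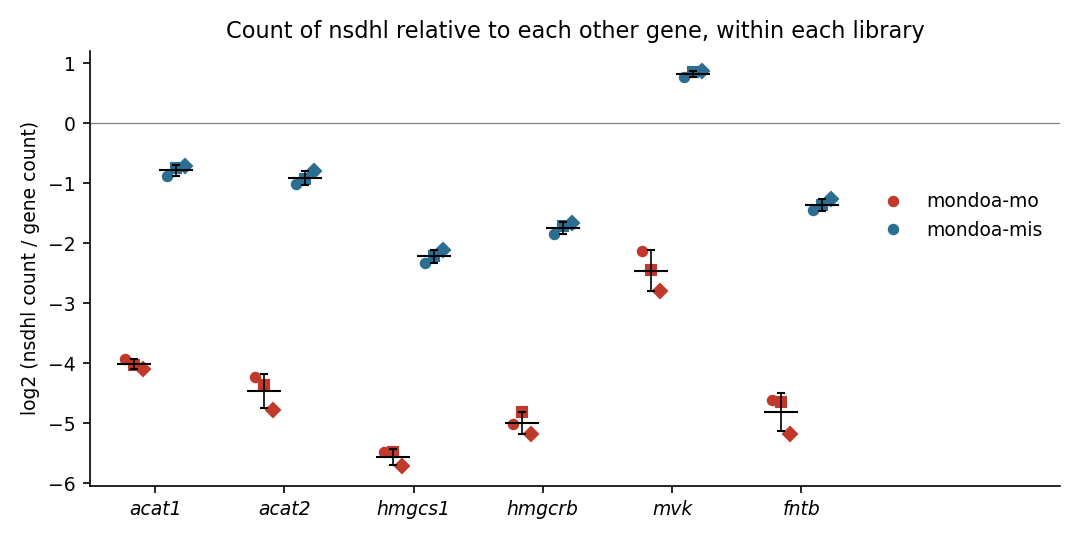
Log2 ratio of the raw counts of nsdhl to those of each of the 6 mevalonate genes within each library, with mondoa-mo left of mondoa-mis; points are single libraries and bars the mean and SD of 3 libraries. The difference between groups lies between -3.55 for acat2 and -3.23 for acat1, and the ratio to mvk is above 0 in mondoa-mis alone.

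Abundance was compared between genes as CPM per kilobase of the deposited gene length. In mondoa-mo the order was hmgcs1 at 32.1 ± 2.56, acat2 at 26.6 ± 1.78, fntb at 23.9 ± 1.40, hmgcrb at 22.0 ± 1.73, acat1 at 7.61 ± 1.03, mvk at 7.31 ± 0.948 and nsdhl at 1.40 ± 0.228 CPM per kilobase (SD, n = 3). In mondoa-mis it was hmgcs1 at 42.5 ± 0.688, hmgcrb at 30.7 ± 0.818, acat2 at 30.4 ± 0.566, fntb at 29.2 ± 0.192, nsdhl at 18.7 ± 1.14, acat1 at 10.8 ± 0.293 and mvk at 9.98 ± 0.334 CPM per kilobase (SD, n = 3). Thus nsdhl stood in place 7 in mondoa-mo and in place 5 in mondoa-mis, where it lay above acat1 and mvk. Libraries of neighbours in this order overlapped between acat2 and fntb, fntb and hmgcrb, and acat1 and mvk in mondoa-mo, and between hmgcrb and acat2 in mondoa-mis, so these neighbours were not told apart.

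**Figure D3:**
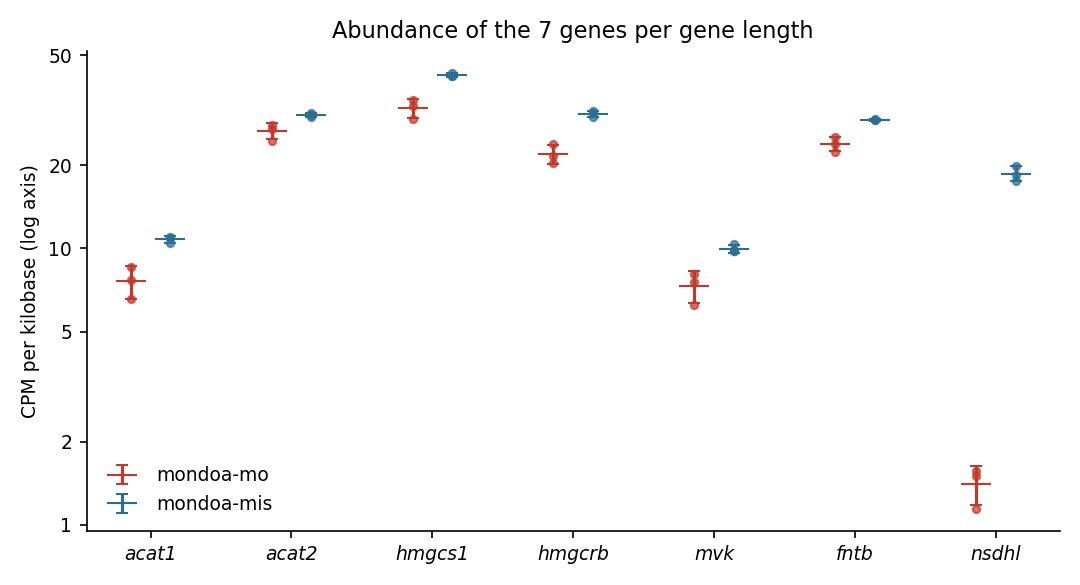
CPM per kilobase of deposited gene length for the 7 genes on a log axis, with mondoa-mo left of mondoa-mis; points are single libraries and bars the mean and SD of 3 libraries. The 6 mevalonate genes keep levels of 7.31 to 32.1 CPM per kilobase in mondoa-mo, while nsdhl is at 1.40 there and at 18.7 in mondoa-mis.

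Gene models that overlap a member could share reads with it, because the use of strand in counting is not stated. In the RefSeq annotation of assembly GRCz12tu, which is not the build of the counts and was used for neighbours only, nsdhl overlaps cetn2 at one end and hmgcs1 overlaps an unnamed locus at one end. The gene hmgcrb lies within the span of cert1b and fntb within that of rab15. The log2 fold change of rab15 was -0.11 (adjusted p = 0.45 by the edgeR quasi-likelihood test after Benjamini-Hochberg adjustment). No value is given here for cetn2, cert1b or the unnamed locus, so rab15 says nothing about those overlaps. The levels of these 4 members are uncertain to that extent.

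The other genes of mevalonate and isoprenoid metabolism did not follow the members as a group. Over a list of 23 genes from acetyl-CoA to prenylated proteins, dolichol and ubiquinone, of which 22 were tested, 5 were called higher (22.7%), 7 lower (31.8%) and 10 neither, with a median log2 fold change of -0.14. Over all genes tested, 16.9% were called higher and 15.4% lower. The 6 mevalonate members belong to this list. Among the list's other 16 tested genes, 5 were called higher, 1 lower, and the median was -0.06. The members were chosen with earlier results of these data known, so this contrast describes that choice and is no test.

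Of the enzymes that follow mvk directly, none was called, by the edgeR quasi-likelihood test after Benjamini-Hochberg adjustment. Phosphomevalonate kinase, pmvk, was at 24.9 ± 2.57 CPM in mondoa-mo and 26.2 ± 1.62 CPM in mondoa-mis (log2 fold change -0.08, 95% interval -0.28 to 0.13, adjusted p = 0.55). The decarboxylase mvd was at 2.91 ± 0.670 against 3.73 ± 0.549 CPM (-0.36, -0.79 to 0.07, adjusted p = 0.18). The isomerase idi1, at 105 ± 6.52 CPM in mondoa-mo and 105 ± 3.52 CPM in mondoa-mis, had an interval of -0.13 to 0.12. Farnesyl diphosphate synthase, fdps, was at 120 ± 4.88 CPM in mondoa-mo and 127 ± 1.28 CPM in mondoa-mis, with an interval of -0.18 to 0.03. For pmvk, idi1 and fdps these intervals leave out a change as large as the -0.40 to -0.51 fitted for hmgcs1, hmgcrb, mvk and acat1, and for mvd they do not (SD, n = 3 each).

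Apart from fntb and rce1, the called genes that make or use longer isoprenoids were higher. The partner of fntb, fnta, encodes the alpha subunit that farnesyltransferase shares with geranylgeranyl transferase I. It was at 33.3, 33.3 and 33.0 CPM in mondoa-mo and 27.3, 26.6 and 28.3 CPM in mondoa-mis, and so moved opposite to fntb (log2 fold change 0.28, SE 0.0650, adjusted p = 0.0086 by the edgeR quasi-likelihood test after Benjamini-Hochberg adjustment). Without mondoa-mis library 2 the adjusted p of fnta was 0.061. The beta subunit of geranylgeranyl transferase I, pggt1b, was higher as well, at 13.6 ± 1.09 CPM in mondoa-mo and 9.64 ± 0.379 CPM in mondoa-mis (SD, n = 3 each; log2 fold change 0.50, adjusted p = 0.0034).

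The largest rise in the list was that of nus1, a subunit of the dehydrodolichyl diphosphate synthase of the dolichol branch. It had 206, 230 and 189 CPM in mondoa-mo and 120, 125 and 119 CPM in mondoa-mis (log2 fold change 0.78, SE 0.0683, adjusted p = 2.6e-05 by the edgeR quasi-likelihood test after Benjamini-Hochberg adjustment). Per kilobase, nus1 took place 1 of the 23 genes in mondoa-mo and place 6 in mondoa-mis, where hmgcs1 was first. The remaining genes called higher were ggps1, which makes geranylgeranyl diphosphate (0.26, adjusted p = 0.0047), and dhdds, the partner of nus1 (0.27, adjusted p = 0.011). These last genes were named after their values had been seen, and the call of dhdds was lost without mondoa-mis library 1 (adjusted p = 0.068) or 3 (0.063). Among the 16 tested genes of the list that are not members, the single gene called lower was rce1, a protease that trims prenylated proteins, at 9.36 ± 0.589 CPM in mondoa-mo and 12.4 ± 0.556 CPM in mondoa-mis (SD, n = 3 each; log2 fold change -0.41, adjusted p = 0.0089, and 0.0501 without mondoa-mis library 3).

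**Figure D4:**
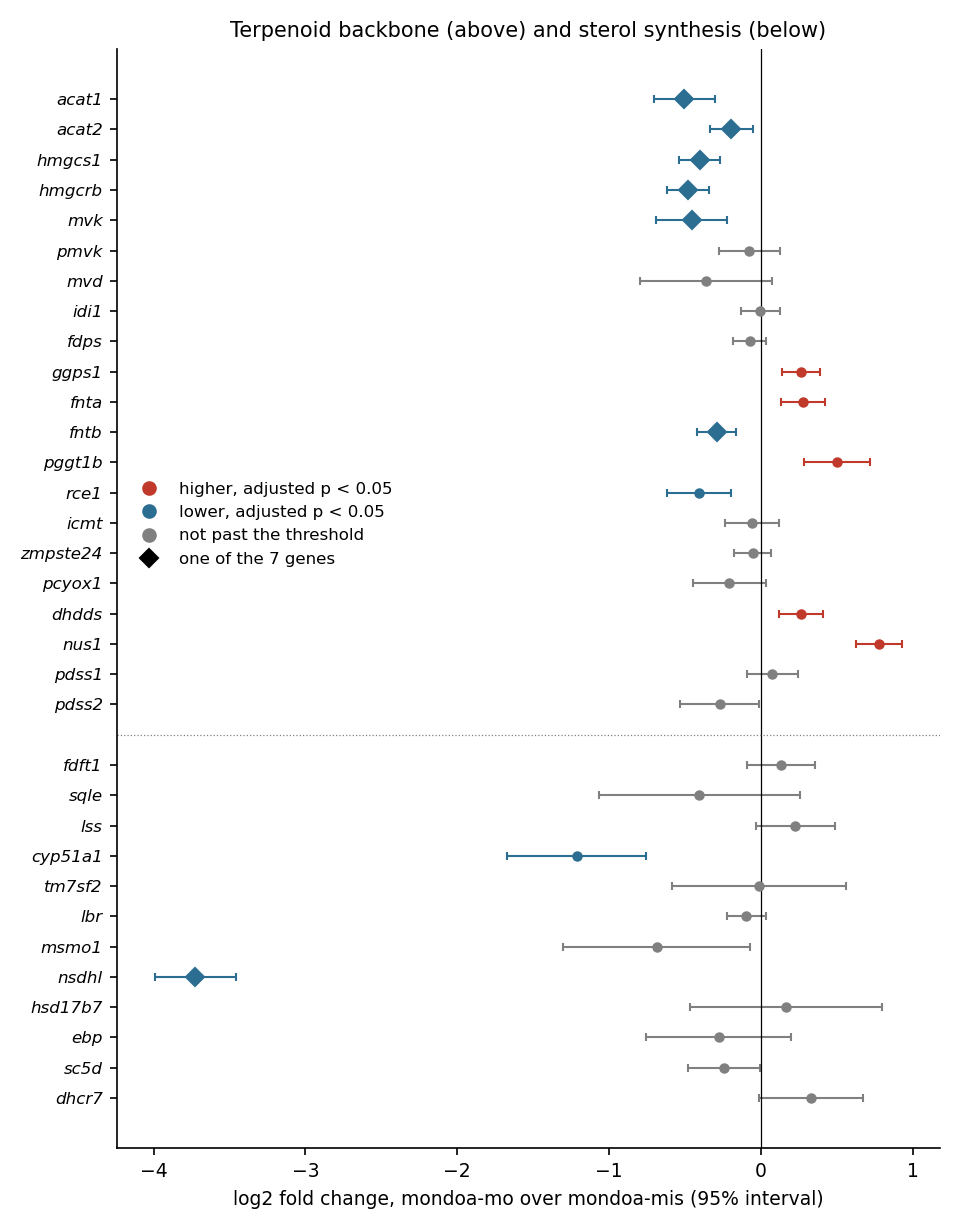
Log2 fold change, mondoa-mo over mondoa-mis, with the 95% interval of edgeR's fit for 21 genes of the mevalonate and isoprenoid list and 12 of the sterol list. The 6 mevalonate members lie between -0.51 and -0.19, nus1 at 0.78, and nsdhl at -3.72, beyond cyp51a1 at -1.21.

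Around nsdhl in the sterol branch, no other gene had a change near as large. Of 16 listed genes of sterol synthesis, 13 were tested, of which 3 were called lower (23.1%), nsdhl included, and 0 higher by edgeR's quasi-likelihood test. At an unadjusted p under 0.05 the number higher was also 0, and it was 0 with DESeq2 and with voom. Without mondoa-mo library 2 or without mondoa-mo library 3, 1 gene of the list was called higher. For comparison, 15.4% of all genes tested were called lower and 16.9% higher in the main fit. The 12 genes other than nsdhl had a median log2 fold change of -0.17.

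Upstream of nsdhl, lanosterol synthase, lss, was at 9.76 ± 1.22 CPM in mondoa-mo and 8.37 ± 0.432 CPM in mondoa-mis (SD, n = 3 each; log2 fold change 0.23, adjusted p = 0.17 by the edgeR quasi-likelihood test after Benjamini-Hochberg adjustment). The lanosterol demethylase cyp51a1, also written cyp51, was called lower. Its level was 0.90, 0.83 and 0.75 CPM in mondoa-mo and 1.84, 1.83 and 2.14 CPM in mondoa-mis, and its log2 fold change was -1.21 (SE 0.207, adjusted p = 0.0015). It was the one other gene of the list called and at least 2-fold lower. Per kilobase, nsdhl exceeded cyp51a1 4.40-fold in mondoa-mo and 24.9-fold in mondoa-mis.

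Enzymes that work with Nsdhl on the same methyl groups in mammals were expressed at low levels. The methylsterol monooxygenase msmo1 was at 0.42, 0.55 and 0.50 CPM in mondoa-mo and 0.82, 0.85 and 0.67 CPM in mondoa-mis, groups that did not overlap but did not pass the test (log2 fold change -0.69, 95% interval -1.30 to -0.07, adjusted p = 0.083 by the edgeR quasi-likelihood test after Benjamini-Hochberg adjustment). The ketoreductase hsd17b7 was at 1.28, 1.66 and 0.79 CPM in mondoa-mo and 0.94, 1.15 and 1.24 CPM in mondoa-mis, with overlapping groups and an interval of -0.47 to 0.80 (adjusted p = 0.69). Per kilobase, nsdhl exceeded msmo1 4.56-fold in mondoa-mo and 38.2-fold in mondoa-mis, and exceeded hsd17b7 2.27-fold in mondoa-mo and 33.8-fold in mondoa-mis. So nsdhl remained above msmo1 and hsd17b7 in mondoa-mo, by less than in mondoa-mis. Against lss, the level of nsdhl per kilobase was 0.61-fold in mondoa-mo and 9.50-fold in mondoa-mis, so that it lay below lss in mondoa-mo alone.

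Downstream, the sterol isomerase ebp was at 1.98 ± 0.402 CPM in mondoa-mo and 2.38 ± 0.443 CPM in mondoa-mis (SD, n = 3 each; log2 fold change -0.28, adjusted p = 0.35 by the edgeR quasi-likelihood test after Benjamini-Hochberg adjustment). In the order of levels per kilobase over the 16 genes, nsdhl took place 7 in mondoa-mo and place 2 in mondoa-mis. In both groups lbr, a sterol reductase that is also a receptor of the nuclear lamina, was first, at 502 ± 42.9 CPM in mondoa-mo and 537 ± 3.76 CPM in mondoa-mis (SD, n = 3 each).

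Genes of sterol sensing and uptake, which act on the same pathway from outside it, moved in both directions. Of 27 matched genes 24 were tested, and 8 were called higher (33.3%) and 4 lower (16.7%), with a median log2 fold change of 0.19. Of all genes tested, 16.9% were called higher and 15.4% lower, so the lower share of the list was near that over all genes. The gene for SREBP2 itself, srebf2, was at 133, 118 and 115 CPM in mondoa-mo and 94.8, 89.2 and 90.0 CPM in mondoa-mis (log2 fold change 0.42, adjusted p = 0.00062 by the edgeR quasi-likelihood test after Benjamini-Hochberg adjustment). It was thus higher in the libraries in which hmgcs1 and hmgcrb, known SREBP2 targets in mammals, were lower.

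The copies of the LDL receptor gene moved apart. The abundant copy, ldlrb, was at 24.4, 23.0 and 19.3 CPM in mondoa-mo and 13.3, 14.2 and 14.7 CPM in mondoa-mis (log2 fold change 0.66, adjusted p = 0.00081 by the edgeR quasi-likelihood test after Benjamini-Hochberg adjustment). The rare copy, ldlra, was at 0.38, 0.23 and 0.13 CPM in mondoa-mo and 0.94, 0.68 and 0.71 CPM in mondoa-mis (-1.58, adjusted p = 0.011, and 0.059 without mondoa-mis library 1). Higher levels were also fitted for ldlrap1a, the adaptor that takes up the LDL receptor (0.76, adjusted p = 0.00016), and for ubxn8, a partner of the degradation machinery of the endoplasmic reticulum (0.29, adjusted p = 0.022). The call of ubxn8 was lost without mondoa-mis library 1 or 2 (adjusted p = 0.11 for each).

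Among the other genes of this list called lower was the ubiquitin ligase gene amfr (ENSDARG00000020218). It was at 154 ± 31.3 CPM in mondoa-mo and 203 ± 5.02 CPM in mondoa-mis (SD, n = 3 each; log2 fold change -0.40, adjusted p = 0.024). Another was mylipa, whose mammalian counterpart marks the LDL receptor for degradation, at 218 ± 25.3 against 267 ± 11.3 CPM (-0.29, adjusted p = 0.015). The SREBP retention factor insig1, named after its value had been seen, was at 16.9 ± 0.674 CPM in mondoa-mo and 20.1 ± 1.50 CPM in mondoa-mis (SD, n = 3 each; -0.26, adjusted p = 0.042), all by the edgeR quasi-likelihood test after Benjamini-Hochberg adjustment. The insig1 call held under 5 of 13 alternatives and was lost with DESeq2 (adjusted p = 0.064), the replicate block (0.057), voom (0.061), the filter at 1 count (0.064), without mondoa-mo library 1 (0.081) and without mondoa-mis library 1, 2 or 3 (0.19, 0.13 and 0.059). Where 4 genes of the list were called lower in the main fit, 0, 1 and 2 were without mondoa-mis library 1, 2 and 3. Over the whole table the genes called lower also became fewer, 1539, 1487 and 1506 in these fits against 2396. The cause was not tested.

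Enzymes that make or use acetoacetyl-CoA and HMG-CoA outside the mevalonate pathway were mostly lower where called. Of 8 tested genes 4 were called lower (50.0%) and 1 higher, with a median log2 fold change of -0.23. The shares over all genes tested were 15.4% lower and 16.9% higher. The cytosolic acetoacetyl-CoA synthetase gene aacs was at 57.1 ± 3.31 CPM in mondoa-mo and 80.2 ± 2.03 CPM in mondoa-mis (SD, n = 3 each; log2 fold change -0.49, adjusted p = 0.00019 by the edgeR quasi-likelihood test after Benjamini-Hochberg adjustment). The thiolase subunit gene hadhb of mitochondrial fatty acid breakdown was higher, at 102 ± 9.39 against 72.4 ± 1.93 CPM (0.49, adjusted p = 0.00043). Also called lower were acaa2 (-0.26) and oxct1a (-0.20), which were named after their values had been seen and lost the call without mondoa-mis library 1 or 3, which left 2 of the 4.

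Of the genes listed under steroid hormone synthesis, 12 were matched and 5 tested, with 2 called lower and 1 higher. Beside these few genes, 15.4% of all genes tested were called lower and 16.9% higher. The dehydrogenase gene hsd3b2 was at 8.22 ± 0.459 CPM in mondoa-mo and 11.7 ± 0.463 CPM in mondoa-mis (SD, n = 3 each; log2 fold change -0.51, adjusted p = 0.0027 by the edgeR quasi-likelihood test after Benjamini-Hochberg adjustment). The hydroxylase gene cyp7b1 was at 1.60, 2.35 and 2.21 CPM in mondoa-mo and 3.72, 3.57 and 3.80 CPM in mondoa-mis (-0.87, adjusted p = 0.0043). The one gene called higher, cyp17a1 (0.16, adjusted p = 0.037), was named after its value had been seen. Its call was lost without mondoa-mo library 1 or 2 or any mondoa-mis library, with adjusted p up to 0.18, while without mondoa-mo library 3 the number called higher was 2.

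The genes with a pattern most like nsdhl over the 6 libraries were found by the Euclidean distance between log2 CPM profiles, each taken relative to its mondoa-mis mean, among tested genes whose mean count reached 50 in the group with the higher mean. The nearest was bcl2l12 (ENSDARG00000090625), at a distance of 0.963. It had 6.02, 6.36 and 5.05 CPM in mondoa-mo and 52.2, 52.1 and 51.5 CPM in mondoa-mis. The next were AURKAIP1 (2.08), PYGM (2.19), ANKRD54 (2.33) and TYW3 (2.45), the gene names as the table of gene symbols gives them for zebrafish identifiers. With a minimum of 200 counts, 3 of these 5 were again among the nearest 5. They are named for likeness of pattern alone. The distance follows mainly the size of the fall, so the mevalonate genes, with far smaller falls, could not be among them.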

How the data were processed

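Embryo RNA was extracted with TRIzol, and TruSeq mRNA libraries were sequenced for 50 nucleotides from each end in 3 lanes. Per the submitters' processing notes, reads were mapped with STAR 2.3.8 to GRCz11, and Ensembl 96 genes were used. The authors deposited raw counts per gene without normalization, with a gene length in bases used here only for levels per kilobase. Whether strand was used in counting is not given in the sources used here.

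The 6 libraries were grouped by their labels. In R 4.3.3, edgeR 4.0.16 was run with filterByExpr, TMM factors and a quasi-likelihood test of the group alone; p-values were adjusted by Benjamini-Hochberg over 15511 genes. The SE is the log2 fold change divided by the square root of the F statistic, and intervals are 95%. Ratios within libraries were compared by an exact permutation test. The edgeR, DESeq2 and voom fits were checked on simulated data with the same spread in both groups. That check did not cover the unequal spread of these libraries. Total counts of 20685326 to 32100726 set the counting precision. Symbols came from a table that named 28986 of 32054 identifiers.

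Named were the members, the 25 called genes of the 5 pathway lists with the largest change, the direct neighbours of nsdhl, fnta, and the 5 genes nearest to nsdhl in pattern; some genes that this rule names are not reported here, though the counts and places over lists include them. The members and lists were chosen with earlier results of these data known. Alternatives were RLE factors or library size alone, 2 other filters on low counts, DESeq2 1.42.0, a block for the replicate number, and each library left out in turn. Voom with the spread of each group (limma 3.58.1) was chosen after seeing the data. No sequences were used here. Genome coordinates, those of assembly GRCz12tu, served only to find genes that overlap a member.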

Additional observations from a re-analysis of the deposited data

How the results depend on the processing

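The log2 fold changes of nsdhl, hmgcs1, hmgcrb, mvk, acat1 and fntb kept their direction and call under all 13 alternatives. Over these, nsdhl lay between -3.80 and -3.60, and the highest adjusted p among the 6 genes was 0.046, for mvk (edgeR quasi-likelihood test, Benjamini-Hochberg). The exception was acat2, with -0.19 and an adjusted p of 0.053 when a single count sufficed for testing, and -0.24 to -0.14 when single libraries were left out. Differences of the nsdhl ratios stayed between -3.66 and -3.11. Leaving out each library in turn gave 1487 to 2793 genes called lower and 1632 to 3039 called higher over the whole table, against 2396 and 2621; without mondoa-mis library 1, 2 or 3 the numbers were 1539, 1487 and 1506 lower, and 1736, 1632 and 1667 higher. Per list it gave 0 to 1 sterol genes higher, 0 to 5 sensing genes lower, 0 to 2 steroid genes higher and 2 to 4 genes of HMG-CoA use lower. The steroid genes called higher were 0 with library size alone and 0 with DESeq2. With CPM not divided by length, 5 of 7 members kept their place in the order in mondoa-mo and 3 of 7 in mondoa-mis. With a minimum of 200 counts, 3 of the 5 genes nearest to nsdhl were shared. The cause of these changes was not tested, except that a left-out library leaves fewer samples. Same-numbered libraries of the groups deviated together only weakly (correlations 0.0382, 0.0261 and 0.0473), and all 6 correlated best with their own number. With the replicate block nsdhl was at -3.72 and 7 of 7 members were called lower.

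With 3 libraries a group, the permutation test cannot pass 0.05. Genes under 2 CPM, such as msmo1, cyp51a1 and ldlra, have wide intervals. The groups shared one estimate of spread in the fit although mondoa-mo was the more spread.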
